A study of Mus musculus with 12 samples.

Results

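Transcript levels of 10 epithelial genes were examined in whole mouse embryos lacking *Carm1* or *Pax3*. The genes are the basal epidermal keratins *Krt5*, *Krt14* and *Krt15*, the simple epithelial keratins *Krt8*, *Krt18* and *Krt19*, the epidermal transcription factor gene *Trp63*, and the junction genes *Perp*, *Dsp* and *Cdh1*. They were taken by name from the 23420 genes listed in each count table. All 10 passed the filter on low counts in both lines. RNA was collected at E12.5 from 12 whole embryos, in 4 groups of 3. In the *Carm1* line, on a C57BL/6 background, embryos homozygous for the *Carm1*tm1Mtb allele (here *Carm1* KO/KO) were compared with wild-type embryos. In the *Pax3* line, a closed colony of mixed CBA/Ca, 101 and C3H/He origin, embryos homozygous for the *Pax3* Sp2H allele (Splotch, here *Pax3* Sp2H/Sp2H) were compared with wild-type embryos. All embryos came from intercrosses of heterozygotes and received no treatment. Both alleles are carried in every cell of the embryo. The *Carm1* allele lacks exons 2 and 3, and the counts, taken per gene, include any transcript that remains. Each library came from 1 embryo. The litters are not given, so the spread between the 3 embryos of a group may or may not include differences between litters.

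Keratin filaments are built from pairs of a type I and a type II keratin. Basal keratinocytes of the epidermis pair the type II keratin *Krt5* with the type I keratins *Krt14* or *Krt15*, whereas simple epithelia such as gut, liver, mesothelium and the periderm over the young epidermis pair the type II keratin *Krt8* with the type I keratins *Krt18* or *Krt19*. The p63 protein encoded by *Trp63* commits surface ectoderm to a stratifying epithelium and activates *Krt5*, *Krt14* and *Perp*. *Perp* encodes a tetraspan protein of desmosomes, *Dsp* encodes desmoplakin, which ties keratin filaments to desmosomes, and *Cdh1* encodes E-cadherin of the adherens junction. *Carm1* encodes an arginine methyltransferase that acts on histones and on proteins of transcription and splicing. *Pax3* encodes a transcription factor of the dorsal neural tube, neural crest and somites.

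The type II keratins and *Krt18* lie together on chromosome 15 (GRCm38). *Krt5* occupies chr15:101707070-101712898 on the minus strand, *Krt8* occupies chr15:101996698-102004482 on the minus strand, and *Krt18* occupies chr15:102028180-102032027 on the plus strand. *Krt8* and *Krt18* stand 23697 bases apart, and 283799 bases separate *Krt8* from *Krt5*. The other type I keratins lie on the minus strand of chromosome 11. They are *Krt15* at chr11:100131758-100135928, *Krt19* at chr11:100140810-100148665 and *Krt14* at chr11:100203162-100207548. *Krt19* thus sits between *Krt15*, 4881 bases away, and *Krt14*, 54496 bases away. The remaining genes are on separate chromosomes, with *Trp63* at chr16:25683763-25892102, *Perp* at chr10:18845020-18857073, *Dsp* at chr13:38151294-38198577 and *Cdh1* at chr8:106603351-106670246, all on the plus strand.

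The RefSeq promoter windows (GRCm38.p6) of the 3 keratin genes on chromosome 15 are printed because the basal keratin of this cluster behaved differently from the pair of simple keratins beside it. Each window runs 5′ to 3′ from 250 bases before the RefSeq start to 30 bases after it. It was searched on both strands for the TATA-like words TATAAA and ATAAAA, the GC box GGGCGG and the AP-2-like word GCCNNNGGC. TATAAA and ATAAAA overlap where a T precedes and an A follows. Capitals mark the TATA-like matches.
Krt5, chr15:101712876-101713155, minus strand: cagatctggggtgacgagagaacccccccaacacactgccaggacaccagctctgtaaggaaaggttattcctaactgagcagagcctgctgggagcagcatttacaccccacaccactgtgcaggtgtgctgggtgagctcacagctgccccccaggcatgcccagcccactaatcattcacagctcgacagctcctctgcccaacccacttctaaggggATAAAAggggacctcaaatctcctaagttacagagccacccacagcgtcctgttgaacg
Krt8, chr15:102004313-102004592, minus strand: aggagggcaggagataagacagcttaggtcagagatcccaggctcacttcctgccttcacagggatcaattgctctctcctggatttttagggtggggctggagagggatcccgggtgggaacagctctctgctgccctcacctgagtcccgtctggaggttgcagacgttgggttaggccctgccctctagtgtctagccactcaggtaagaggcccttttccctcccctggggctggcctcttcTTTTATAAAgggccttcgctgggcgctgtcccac
Krt18, chr15:102027966-102028245, plus strand: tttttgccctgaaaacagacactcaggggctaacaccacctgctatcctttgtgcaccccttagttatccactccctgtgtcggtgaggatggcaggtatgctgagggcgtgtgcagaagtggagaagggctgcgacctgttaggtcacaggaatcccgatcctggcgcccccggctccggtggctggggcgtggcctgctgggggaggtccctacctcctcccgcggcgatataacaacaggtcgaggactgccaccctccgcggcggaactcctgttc
In the *Krt5* window ATAAAA began 29 bases before the start. The *Krt8* window held TATAAA on both strands and ATAAAA on the minus strand, in a single run that ended across the RefSeq start, which lies 140 bases inside the GENCODE gene. The *Krt18* window held neither of these words, but GCCNNNGGC once, 83 bases before the start. GGGCGG was in none of these 3 windows. Of 32851 promoter windows of this length, 13.1% held TATAAA, 17.9% ATAAAA, 34.7% GGGCGG and 15.4% GCCNNNGGC. These matches describe letters only. Windows were also found for *Krt14* and *Dsp*, so that 5 of the 10 genes had one. The *Krt14* window starts 1518 bases inside the GENCODE gene.

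Libraries held between 17183344 and 23518692 counts. As a check of the labels, *Carm1* lay between 69.3 and 76.2 counts-per-million (CPM, on library sizes scaled by TMM) in *Carm1* KO/KO embryos and between 137 and 151 CPM in their wild types. *Pax3* lay between 18.1 and 22.4 CPM in *Pax3* Sp2H/Sp2H embryos and between 24.96 and 30.9 CPM in their wild types. The groups of each line were thus apart for the targeted gene. *Pax3* was also apart in the *Carm1* line, at 27.4 to 30.4 CPM in mutants and 20.5 to 24.2 CPM in wild types. In the *Pax3* line the groups were apart for 39.6% of all genes tested, so *Pax3* is a weak check of the labels. At least 100 counts on Y-linked genes were present in wild-type library 3 of the *Carm1* line and in wild-type libraries 2 and 3 and mutant library 3 of the *Pax3* line. The single-library counts behind the 10 genes ran from 90 for *Krt19* to 1908 for *Krt5*.

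Levels were compared first per kilobase of reference transcript, the scale on which different genes can be set side by side. *Krt5* was the highest of the 10 genes in every group, at 37.0 ± 1.95 CPM per kb in *Carm1* wild types and 24.1 ± 1.57 in *Carm1* KO/KO embryos (mean ± SD, n = 3). The *Pax3* line had it at 23.1 ± 3.84 CPM per kb in wild types and 30.6 ± 3.12 in Sp2H/Sp2H embryos (n = 3). *Krt5* thus read lower in the *Pax3* wild types than in the *Carm1* wild types. TMM factors were set within each line, so the CPM scales of the 2 lines may differ. The lines also differ in colony and litters and may differ in strain, which cannot be told apart here. In *Carm1* wild types *Krt14* was second at 19.4 ± 1.31 CPM per kb, ahead of *Krt8* at 15.3 ± 2.52, *Krt18* at 14.8 ± 2.38 and *Krt15* at 14.4 ± 1.13 CPM per kb, and these last 3 neighbours did not differ beyond their spread. In *Carm1* KO/KO embryos *Krt18* at 15.4 ± 2.42 and *Krt8* at 14.6 ± 2.48 CPM per kb stood above *Krt14* at 11.9 ± 1.31 CPM per kb. In *Pax3* wild types *Krt18* was second at 14.4 ± 1.18 CPM per kb, with *Krt14* at 12.6 ± 1.53 and *Krt8* at 12.1 ± 2.02 CPM per kb within each other's spread and *Krt15* lower, at 7.96 ± 0.779 CPM per kb. In *Pax3* Sp2H/Sp2H embryos *Krt14*, *Krt18*, *Krt15* and *Krt8* lay together, between 12.6 and 14.2 CPM per kb. The junction genes lay between 5.30 CPM per kb for *Cdh1* in *Pax3* Sp2H/Sp2H embryos and 8.57 CPM per kb for *Perp* in *Carm1* wild types. *Perp* stood above *Krt19* in every group and, in *Pax3* wild types, at 8.53 ± 0.361 CPM per kb, above the mean of *Krt15* as well. *Trp63* had the lowest mean in 3 groups, between 3.55 and 3.86 CPM per kb, while in *Pax3* wild types *Krt19* at 3.71 ± 0.503 lay below *Trp63* at 4.10 ± 0.132 CPM per kb, with overlapping libraries.

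Loss of *Carm1* was accompanied by lower transcript levels of all 3 basal keratins. Their levels fell to between 61.5% and 69.8% of wild type, and for each of them no mutant library reached the lowest wild-type library. Of the 10 genes, 4 were significant in the *Carm1* line, all lower, beside 13.3% of the 15811 genes tested there (5.49% higher and 7.83% lower). The groups did not overlap in 4 of the 10 genes, beside 30% of all genes tested. The median log2 fold change of the 10 genes was -0.17 and that of all genes tested 0.0014. Since the embryos were homogenized whole, fewer cells of a type and less RNA per cell cannot be told apart.

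*Krt5*, the type II keratin of the basal layer, read 49.3, 56.1 and 53.4 CPM in the 3 mutant libraries and 85.2, 82.0 and 76.7 CPM in the wild types. All mutant values lay below all wild-type values, with a gap wider than the range within either group. In the quasi-likelihood test of edgeR, adjusted by the Benjamini-Hochberg method, *Krt5* fell with a log2 fold change of -0.62 (SE 0.056, 95% interval -0.73 to -0.50, adjusted *P* = 9.7e-10). Its partner *Krt14* read 17.7, 21.5 and 21.6 CPM in the mutants and 33.5, 34.8 and 30.5 CPM in the wild types. Mutant libraries were again all below the wild-type libraries. *Krt14* had a log2 fold change of -0.70 (SE 0.081, 95% interval -0.87 to -0.54, edgeR adjusted *P* = 1.6e-07). *Krt15*, a type I keratin that also marks basal and later hair follicle stem cells, read 15.9, 17.3 and 18.4 CPM in the mutants and 22.8, 26.6 and 24.2 CPM in the wild types. The groups were apart here too, by a narrower margin. *Krt15* had a log2 fold change of -0.52 (SE 0.085, 95% interval -0.69 to -0.35, edgeR adjusted *P* = 5.2e-05). These 3 calls held under each of the 15 alternatives, with adjusted *P* of at most 0.0038 for *Krt5* and 0.0025 for *Krt15*. Taken as a sum, the basal keratins lay between 82.9 and 94.9 CPM in the mutants and between 131 and 143 CPM in the wild types.

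**Figure D1:**
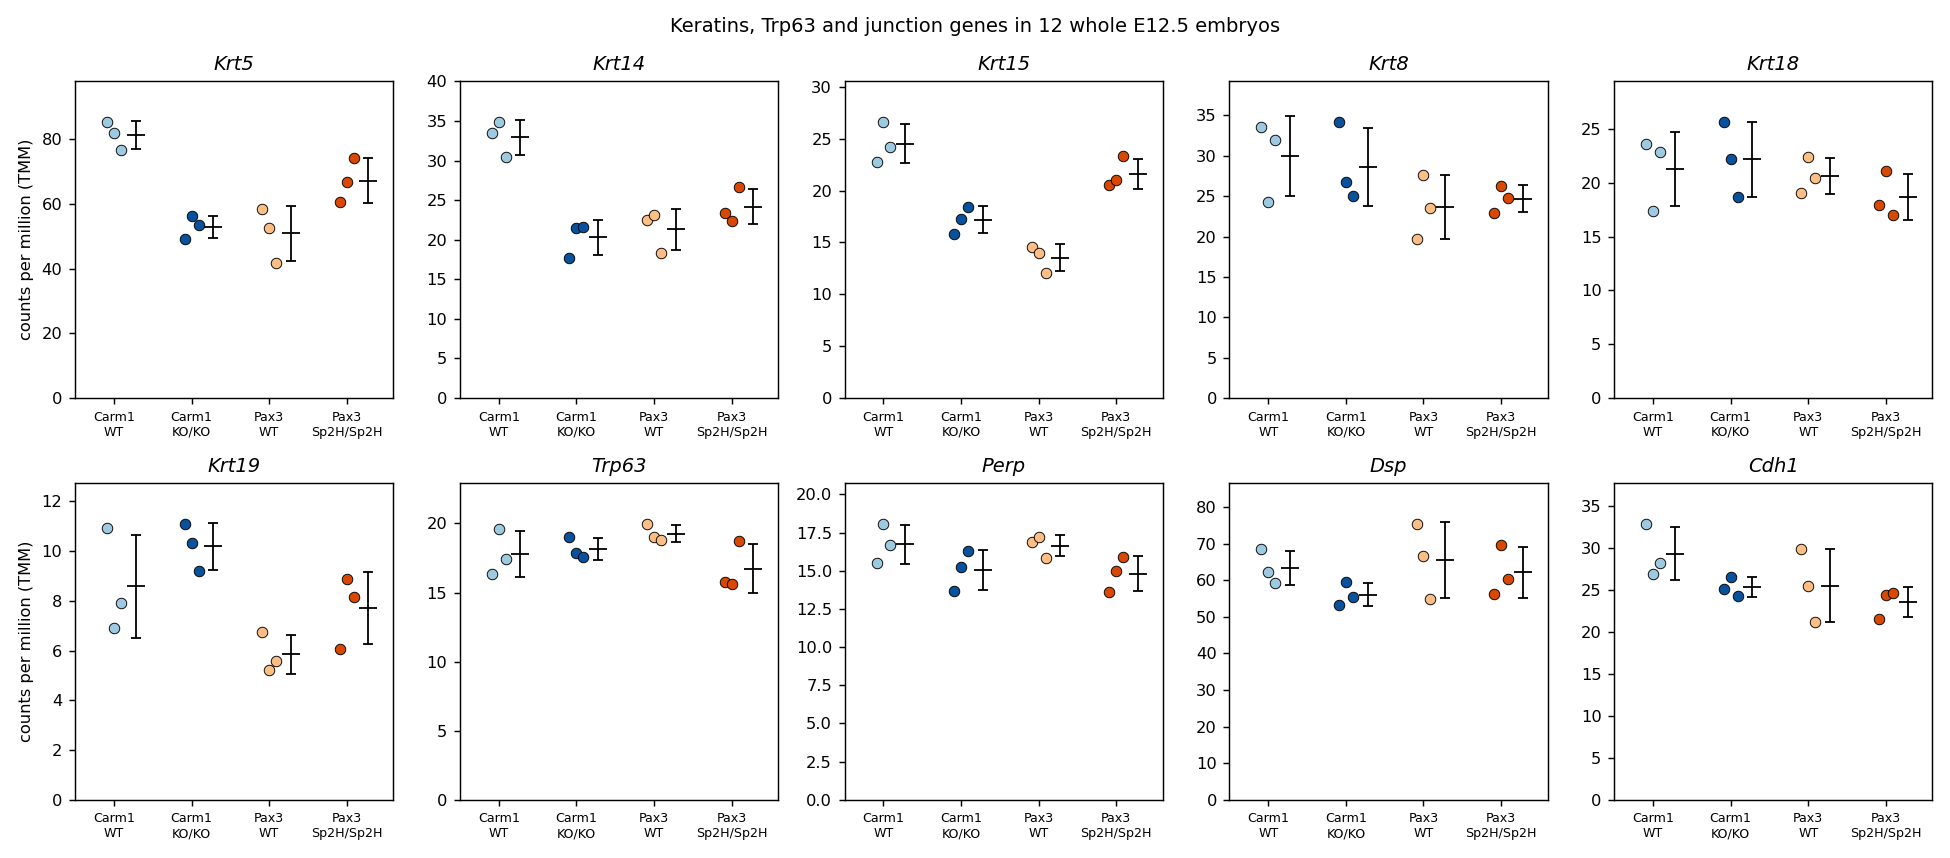
CPM (TMM-scaled, y axis from 0) of the 10 genes in the 12 libraries, 1 panel per gene and 1 point per embryo, with the mean and SD of each group of 3 beside the points. In *Krt5*, *Krt14* and *Krt15* the *Carm1* KO/KO points lie below all points of their wild types, while *Krt15* lies higher in *Pax3* Sp2H/Sp2H embryos (20.6 to 23.3 CPM) than in their wild types (12.03 to 14.5 CPM).

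In the *Pax3* line the basal keratins had positive log2 fold changes, and *Krt15* was the member past the threshold. Of the 10 genes, 1 was significant in this line, beside 24.5% of the 15724 genes tested (14% higher and 10.5% lower). The groups did not overlap in 3 of the 10 genes, *Krt5*, *Krt15* and *Trp63*, beside 39.6% of all genes tested. Both shares among the 10 genes were below those of all genes. The median log2 fold change of the 10 genes was -0.0051 and that of all genes -0.0026.

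*Krt15* read 20.6, 21.0 and 23.3 CPM in the 3 *Pax3* Sp2H/Sp2H libraries and 14.5, 14.0 and 12.03 CPM in the wild types. The lowest mutant embryo stood well above the highest wild type. *Krt15* rose with a log2 fold change of 0.68 (SE 0.095, 95% interval 0.49 to 0.88, edgeR adjusted *P* = 7.1e-06), to 160% of wild type, and was called under all 15 alternatives. *Krt5* read 60.6, 66.7 and 74.3 CPM in the mutants and 58.3, 52.6 and 41.7 CPM in the wild types. The groups did not overlap, but the gap between them was small beside the spread among the wild types. Its log2 fold change was 0.41 (SE 0.13, 95% interval 0.096 to 0.72) with an edgeR adjusted *P* of 0.064, so it did not pass the threshold. DESeq2 gave an adjusted *P* of 0.0014 for *Krt5*, and over the 15 alternatives its adjusted *P* ran from 0.0014 to 0.26, with 6 calls and log2 fold changes between 0.28 and 0.52. It was called without wild-type replicate 1 (adjusted *P* = 0.0052 by edgeR), without wild-type replicate 3 (0.013) and without mutant replicate 1 (0.0090). *Krt14* read 23.4, 22.4 and 26.6 CPM in the mutants and 22.4, 23.2 and 18.3 CPM in the wild types. Here the groups overlapped, since mutant library 2 lay below wild-type library 2. *Krt14* had a log2 fold change of 0.19 (SE 0.095, 95% interval -0.0083 to 0.38, edgeR adjusted *P* = 0.16), and no alternative called it. The sum of the 3 basal keratins lay between 105 and 124 CPM in mutants and between 72.0 and 95.2 CPM in wild types.

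The mutant effect on each basal keratin differed between the 2 lines. In one model of all 12 libraries the difference of log2 fold changes, *Carm1* line minus *Pax3* line, was -1.01 for *Krt5* (SE 0.16, edgeR adjusted *P* = 8.1e-04). It was -0.88 for *Krt14* (SE 0.13, edgeR adjusted *P* = 2.1e-05) and -1.19 for *Krt15* (SE 0.13, edgeR adjusted *P* = 1.5e-07). These were the 3 of the 10 genes for which the difference passed the threshold, all negative, beside 19.1% of the 16292 genes tested (8.65% positive and 10.5% negative), and all 3 passed under each of the 20 alternatives. No wild-type library was shared between the lines. The mutant levels of *Krt5* in the *Carm1* line, 49.3 to 56.1 CPM, fell within the range of the wild-type levels in the *Pax3* line, 41.7 to 58.3 CPM. These CPM were scaled within each line, so the scales of the 2 lines may differ.

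**Figure D2:**
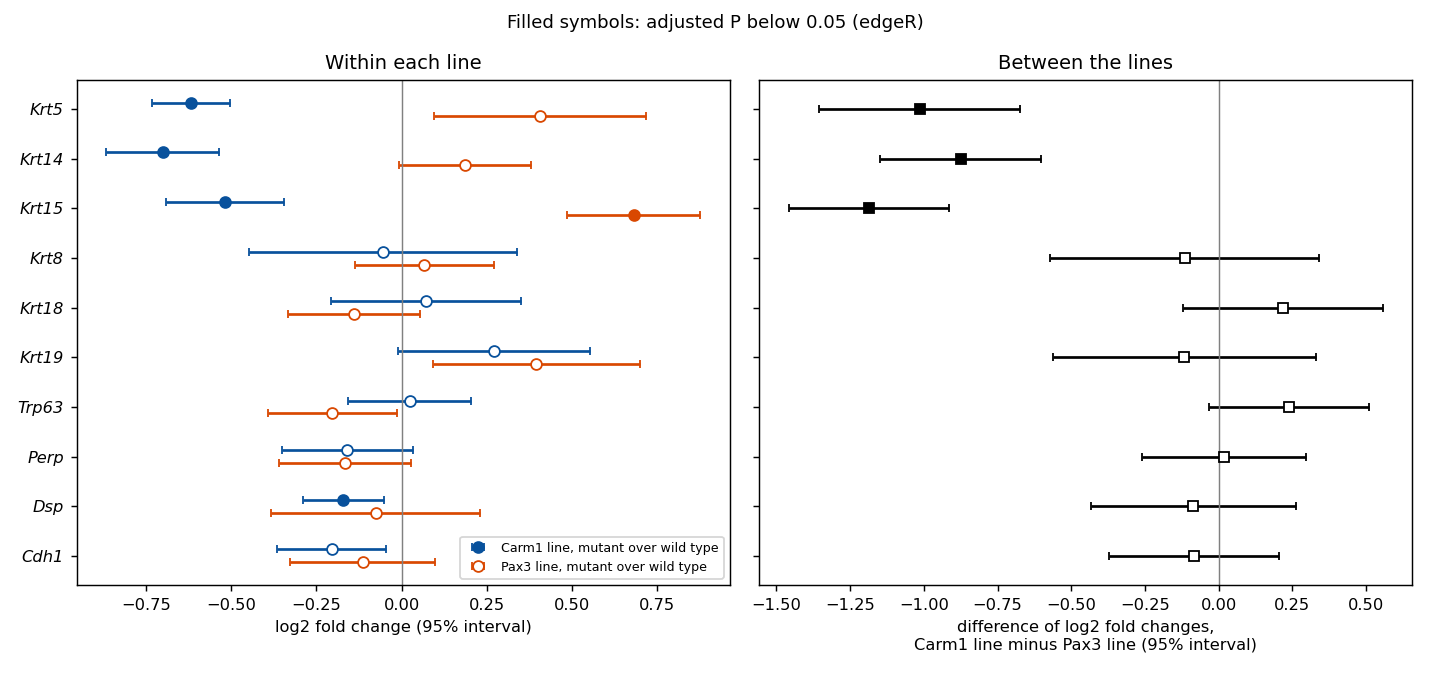
Log2 fold changes of the 10 genes with 95% intervals, mutant over wild type in each line (left, *Carm1* blue and *Pax3* orange), and the difference between the lines (right). Filled symbols have an edgeR adjusted *P* below 0.05, namely *Krt5*, *Krt14*, *Krt15* and *Dsp* in the *Carm1* line, *Krt15* in the *Pax3* line, and *Krt5*, *Krt14* and *Krt15* in the difference.

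The simple epithelial keratins did not pass the threshold in either line. None of the 3 was called by edgeR or by DESeq2 in either line, and at an unadjusted *P* below 0.05 edgeR counted 0 in the *Carm1* line and 1, *Krt19*, in the *Pax3* line. Their sum lay between 52.9 and 70.8 CPM in *Carm1* KO/KO embryos and between 48.6 and 68.1 CPM in the wild types. The same sum in the *Pax3* line lay between 47.0 and 56.2 CPM in mutants and between 45.5 and 55.2 CPM in wild types.

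*Krt8*, the type II keratin of simple epithelia, read 34.1, 26.7 and 24.98 CPM in *Carm1* KO/KO libraries and 33.6, 24.3 and 32.0 CPM in the wild types. Each group had high and low libraries, and the ranges overlapped almost fully. Its log2 fold change was -0.055 (SE 0.16, 95% interval -0.45 to 0.34, edgeR adjusted *P* = 0.88). Among *Pax3* embryos *Krt8* read 22.9, 26.3 and 24.7 CPM in mutants and 19.7, 27.6 and 23.5 CPM in wild types. The mutants fell inside the wild-type range. *Krt8* had a log2 fold change of 0.066 there (SE 0.099, 95% interval -0.14 to 0.27, edgeR adjusted *P* = 0.68). A stretch of 941 nt of *Krt8* matches its processed copy *Krt8-ps* at 98.618% identity, and how reads with several alignments were counted is not given in the sources used here, so the *Krt8* level is uncertain.

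*Krt18*, the usual type I partner of *Krt8*, read 25.6, 22.2 and 18.7 CPM in *Carm1* KO/KO libraries and 23.6, 17.4 and 22.9 CPM in the wild types. The libraries high in *Krt8*, mutant 1 and wild types 1 and 3, were also the highest in *Krt18*. Its log2 fold change was 0.071 (SE 0.13, 95% interval -0.21 to 0.35, edgeR adjusted *P* = 0.79). *Krt18* read 18.0, 21.1 and 17.1 CPM in mutants and 19.0, 22.4 and 20.4 CPM in wild types of the *Pax3* line. The groups overlapped through mutant library 2. *Krt18* had a log2 fold change of -0.14 there (SE 0.094, edgeR adjusted *P* = 0.30). Once transcript length and GC content were offset, it was -0.33 (edgeR adjusted *P* = 0.0092), and over the 15 alternatives the adjusted *P* ran from 0.0092 to 0.68.

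*Krt19*, a small type I keratin of simple and ductal epithelia, was the least counted of the 10 genes. It read 11.1, 10.3 and 9.19 CPM in *Carm1* KO/KO libraries and 10.9, 6.92 and 7.90 CPM in the wild types. Wild-type library 1 lay within the mutant range, and the other wild types lay below it. The log2 fold change of *Krt19* was 0.27 (SE 0.14, 95% interval -0.011 to 0.55, edgeR adjusted *P* = 0.21), and without wild-type replicate 1 it was 0.46 (edgeR adjusted *P* = 0.016, range over the alternatives 0.016 to 0.65). *Pax3* mutants read 6.08, 8.88 and 8.15 CPM for *Krt19* and their wild types 6.73, 5.21 and 5.58 CPM. Mutant library 1 lay inside the wild-type range, and the other mutants lay above it. In this line *Krt19* had a log2 fold change of 0.39 (SE 0.15, 95% interval 0.091 to 0.70, edgeR adjusted *P* = 0.052). Of 15 alternatives, 4 called it, among them those without mutant replicate 1 (log2 fold change 0.54, edgeR adjusted *P* = 0.016) and without wild-type replicate 1 (0.51, 0.033), and its adjusted *P* ran from 0.016 to 0.43. For the 3 simple keratins the difference between lines had 95% intervals of -0.57 to 0.34 for *Krt8*, -0.12 to 0.56 for *Krt18* and -0.56 to 0.33 for *Krt19*, none of which passed by edgeR or by DESeq2, with 0 at an unadjusted *P* below 0.05.

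Ratios within a library do not depend on how libraries are scaled. The ratio of raw counts of the 3 basal to the 3 simple keratins lay between 1.17 and 1.77 in *Carm1* KO/KO libraries and between 2.08 and 2.95 in the wild types, with no overlap. This ratio in the *Pax3* line lay between 1.96 and 2.49 in mutants and between 1.45 and 2.09 in wild types, with overlap. *Krt5* gave between 2.47 and 2.78 counts per *Krt14* count in *Carm1* KO/KO libraries and between 2.36 and 2.54 in the wild types. Counts of this pair fell in nearly the same proportion in the *Carm1* line, with overlapping ratios. *Krt15* gave between 0.802 and 0.895 counts per *Krt14* count in *Carm1* KO/KO libraries and between 0.680 and 0.795 in the wild types, and between 0.874 and 0.937 in *Pax3* Sp2H/Sp2H libraries and between 0.605 and 0.656 in their wild types. This ratio was higher in all mutant libraries than in all wild types of the same line. *Krt8* gave between 1.20 and 1.34 counts per *Krt18* count in *Carm1* KO/KO libraries and between 1.40 and 1.42 in the wild types. The corresponding *Pax3* values lay between 1.25 and 1.45 in mutants and between 1.04 and 1.23 in wild types. The *Krt8* to *Krt18* ratio was thus lower in all *Carm1* KO/KO libraries and higher in all *Pax3* Sp2H/Sp2H libraries than in their wild types. With 3 libraries against 3 the exact permutation test of a single ratio cannot go below *P* = 0.1, so no test is given.

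**Figure D3:**
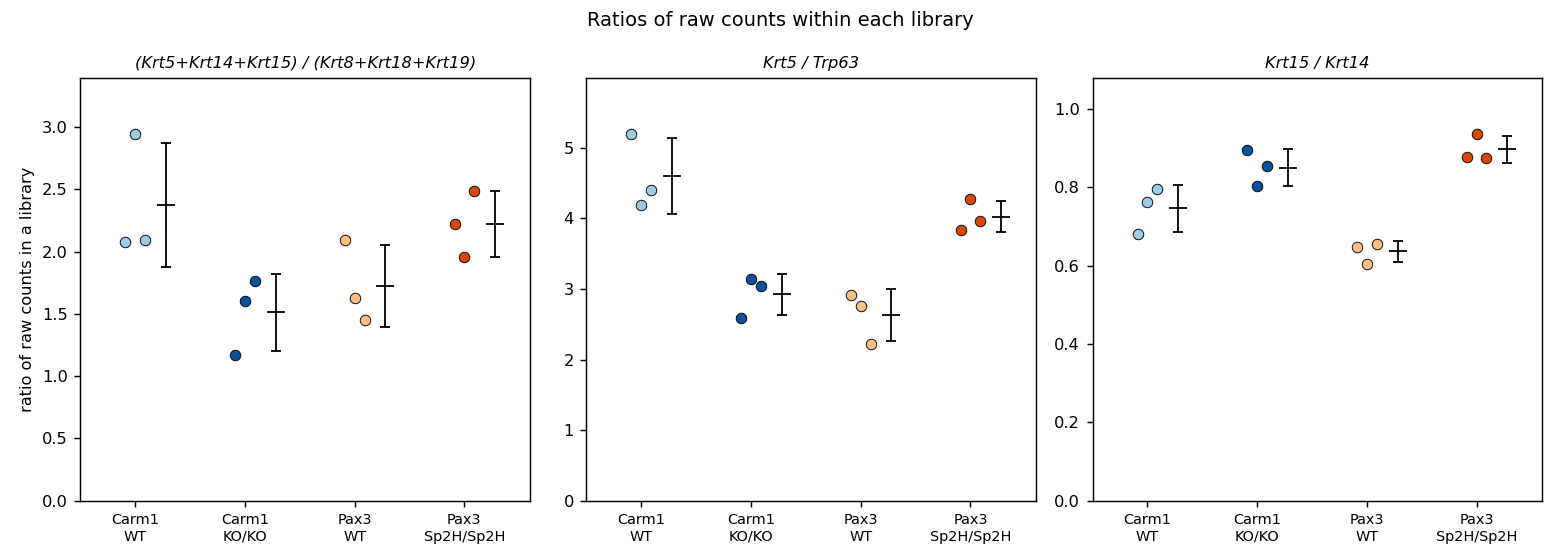
Ratios of raw counts within each library for basal over simple keratins, *Krt5* over *Trp63* and *Krt15* over *Krt14*, with 1 point per embryo and the mean and SD of each group of 3. *Krt5* over *Trp63* lies between 2.59 and 3.14 in *Carm1* KO/KO libraries and between 4.18 and 5.203 in the wild types, while in the *Pax3* line the mutants (3.84 to 4.27) lie above the wild types (2.22 to 2.92).

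*Trp63*, which encodes the transcription factor upstream of the basal keratins, was not called in either line. It read 19.0, 17.9 and 17.6 CPM in *Carm1* KO/KO libraries and 16.4, 19.6 and 17.4 CPM in the wild types. The mutants lay inside the wild-type range. The log2 fold change of *Trp63* was 0.024 (SE 0.089, 95% interval -0.16 to 0.20, edgeR adjusted *P* = 0.90), an interval that does not reach the falls measured for *Krt5*, *Krt14* or *Krt15*. *Pax3* Sp2H/Sp2H embryos read 15.8, 15.6 and 18.8 CPM for *Trp63*, and their wild types read 19.96, 19.1 and 18.8 CPM. The groups did not overlap, although mutant library 3 and wild-type library 3 were nearly equal. *Trp63* had a log2 fold change of -0.20 there (SE 0.092, 95% interval -0.39 to -0.014, edgeR adjusted *P* = 0.11), and no alternative called it. The difference between lines was 0.24 (SE 0.13, edgeR adjusted *P* = 0.22). Counts of *Krt5* per *Trp63* count fell and rose with *Krt5* itself, as the plot of ratios shows.

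The junction genes had negative log2 fold changes in both lines, and 1 of them, *Dsp*, passed the threshold in the *Carm1* line. *Dsp* read 53.3, 59.5 and 55.3 CPM in *Carm1* KO/KO libraries and 68.4, 62.1 and 59.3 CPM in the wild types. The groups touched, since mutant library 2 lay just above wild-type library 3. *Dsp* fell with a log2 fold change of -0.17 (SE 0.059, 95% interval -0.29 to -0.052, edgeR adjusted *P* = 0.047). This call was lost under 7 of 15 alternatives, among them DESeq2 (adjusted *P* = 0.15) and without mutant replicate 1 (0.25 by edgeR), mutant replicate 3 (0.15), wild-type replicate 1 (0.19) or wild-type replicate 2 (0.11), and its adjusted *P* ran from 0.010 to 0.41. *Dsp* in the *Pax3* line read 56.3, 69.7 and 60.3 CPM in mutants and 75.3, 66.5 and 54.8 CPM in wild types. The wild types spread more widely than the mutants and enclosed them. *Dsp* had a log2 fold change of -0.076 (SE 0.13, edgeR adjusted *P* = 0.73).

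*Cdh1* read 25.1, 26.6 and 24.2 CPM in *Carm1* KO/KO libraries and 32.8, 26.9 and 28.2 CPM in the wild types. The mutants were lower, without overlap but with mutant library 2 close to wild-type library 2. The log2 fold change of *Cdh1* was -0.20 (SE 0.078, 95% interval -0.36 to -0.045, edgeR adjusted *P* = 0.081), and it was called with length and GC offsets (0.043, range over the alternatives 0.043 to 0.34). *Cdh1* in the *Pax3* line read 21.5, 24.4 and 24.6 CPM in mutants and 29.9, 25.5 and 21.1 CPM in wild types. The wild types enclosed the mutants. Its log2 fold change was -0.11 (SE 0.10, edgeR adjusted *P* = 0.45).

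*Perp* read 13.7, 15.2 and 16.3 CPM in *Carm1* KO/KO libraries and 15.5, 18.1 and 16.7 CPM in the wild types. Mutant library 3 lay among the wild types. The log2 fold change of *Perp* was -0.16 (SE 0.095, edgeR adjusted *P* = 0.29). *Perp* in the *Pax3* line read 13.6, 14.98 and 15.9 CPM in mutants and 16.9, 17.2 and 15.9 CPM in wild types. Library 3 of the mutants met library 3 of the wild types, and the other mutants lay lower. *Perp* had a log2 fold change of -0.17 (SE 0.094, edgeR adjusted *P* = 0.21). None of the 3 junction genes was called in the difference between lines or in the *Pax3* line, by edgeR or by DESeq2. In neither did any of them have an unadjusted *P* below 0.05. Relative to *Dsp*, *Krt5* counts were lower in all *Carm1* KO/KO libraries, with between 1.04 and 1.08 *Dsp* counts per *Krt5* count against between 0.757 and 0.804 in the wild types. *Pax3* mutants gave ratios between 0.812 and 1.05, and their wild types between 1.27 and 1.31.

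How alike the genes behaved over the 12 libraries was measured as the root mean square difference of their log2 CPM deviations from the mean of each line, where 0 means the same pattern. The deviations themselves had a root mean square of between 0.278 and 0.307 for the basal keratins, between 0.164 and 0.248 for the simple keratins, 0.112 for *Trp63* and between 0.115 and 0.152 for the junction genes, which is how far each gene lay from a flat line. The most alike pair was *Dsp* and *Cdh1*, at 0.063. *Trp63* and *Perp* followed at 0.109, *Krt5* and *Krt14* at 0.112, *Krt8* and *Krt18* at 0.116, and *Krt5* and *Krt15* at 0.130. For *Trp63* and *Perp* this is about as large as the distance of either from a flat line, whereas *Krt5* and *Krt14* deviated by far more than they differed. *Krt19* had no close partner, and its smallest difference was 0.256 from *Krt8*. The largest difference was 0.414, between *Krt15* and *Krt18*. *Krt5* and *Krt14*, which pair in filaments, lie on different chromosomes, and the likewise paired *Krt8* and *Krt18* lie on the same one. *Krt19* differed from its neighbours in the genome by 0.370 (*Krt15*) and 0.413 (*Krt14*). All genes share the depth and makeup of the same 12 libraries, so these values are descriptions.

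**Figure D4:**
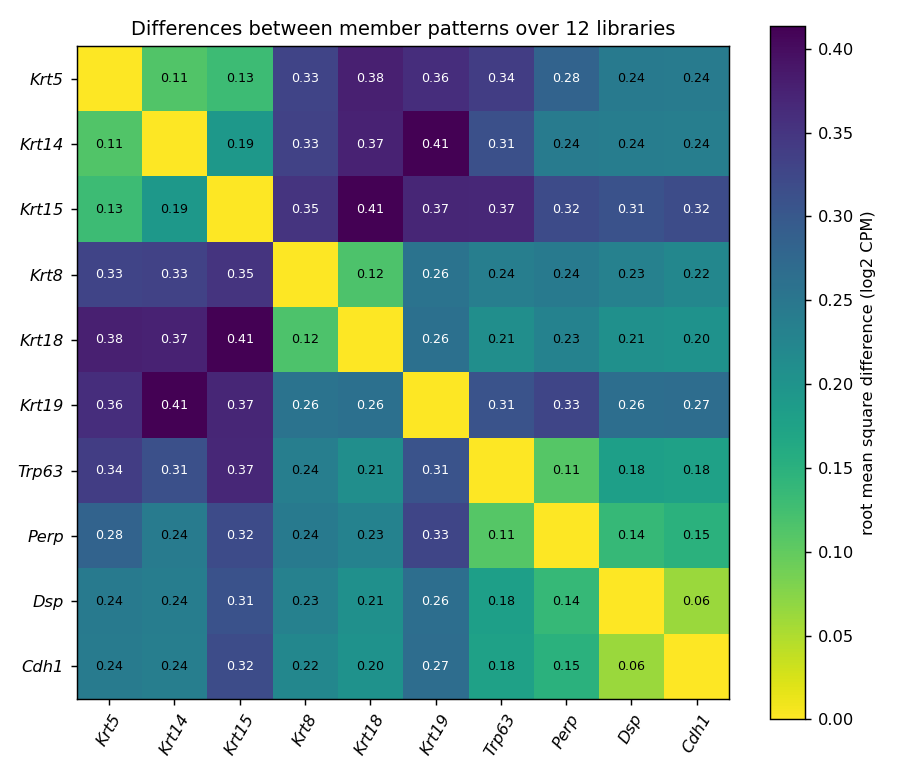
Root mean square difference between log2 CPM deviations of each pair of the 10 genes over the 12 libraries, from 0 (yellow, same pattern) to 0.41 (dark). The smallest value joins *Dsp* and *Cdh1* (0.063). *Trp63*, *Perp*, *Dsp* and *Cdh1* lie within 0.180 of each other. *Krt5* lies within 0.130 of *Krt14* and *Krt15*, which differ from each other by 0.194. *Krt8* and *Krt18* differ by 0.116, while *Krt19* has no value below 0.256.

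Among 14132 other genes, with the 10 genes left out of the ranking, those most like *Krt5* by the same measure were *Epor* (0.118), *Abtb1* (0.120), *Col9a3* (0.125), *Ppp1r15a* (0.129) and *AW549542* (0.131). All had negative log2 fold changes in the *Carm1* line, from -0.67 for *AW549542* to -0.39 for *Abtb1*, and positive ones in the *Pax3* line, from 0.21 for *Ppp1r15a* to 0.64 for *Col9a3*. *Epor* encodes the erythropoietin receptor and *Col9a3* a cartilage collagen chain, so genes of other tissues lay nearly as close to *Krt5* as *Krt14* did. All of those named except *AW549542* were closer to *Krt5* than *Krt15* was (0.130). The genes most like *Krt8* were *Herc6* (0.0844), *AI661453* (0.0854), *Mad2l1bp* (0.107), *Klhl21* (0.108) and *Snx21* (0.109). All of these were closer to *Krt8* than *Krt18* was (0.116), so likeness by this measure is not particular to keratin pairs.

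Other keratins were few at this stage. Of 52 keratin symbols in the tables, 46 were not among the 10 genes, and 32 of those never reached 10 counts in any library, 7 of them with no count at all. In each line 7 of the 46 could be tested. *Krt17*, a type I keratin of periderm, placodes and stressed epidermis, showed the largest change of any gene in the epithelial lists of the *Carm1* line. It read 1.98, 3.25 and 3.30 CPM in *Carm1* KO/KO libraries and 6.64, 7.78 and 7.26 CPM in the wild types. Mutant levels of *Krt17* lay far below the wild types, and its log2 fold change was -1.36 (SE 0.18, edgeR adjusted *P* = 1.3e-06). *Krt17* was not called in the *Pax3* line (log2 fold change 0.40, edgeR adjusted *P* = 0.12), and the difference between lines was -1.74 (SE 0.26, edgeR adjusted *P* = 1.5e-05). *Krt20*, a keratin of gut epithelium and Merkel cells, fell in the *Carm1* line with a log2 fold change of -0.89 (SE 0.22, edgeR adjusted *P* = 0.0051), from a low level of 3.69 CPM in the wild types. Without wild-type replicate 2 this call was lost (edgeR adjusted *P* = 0.080). *Krt7*, the simple epithelial type II keratin, rose in the *Carm1* line from 9.62 ± 0.754 to 12.5 ± 0.948 CPM (n = 3), with a log2 fold change of 0.38 (SE 0.11, edgeR adjusted *P* = 0.018). DESeq2 did not call *Krt7*, nor did edgeR without mutant replicate 1 or wild-type replicate 2, with adjusted *P* of at most 0.12. The suprabasal keratin *Krt10* rose in the *Pax3* line with a log2 fold change of 0.33 (SE 0.11, edgeR adjusted *P* = 0.023). That call was lost without wild-type replicate 1, mutant replicate 1 or mutant replicate 3, with adjusted *P* of at most 0.15.

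Among 22 genes of periderm and suprabasal layers, 11 were tested, and 1 rose (*Krt7*) and 1 fell (*Krt17*) in the *Carm1* line, with a median log2 fold change of -0.11 and 8 of 11 negative. At an unadjusted *P* below 0.05, 1 was higher and 4 were lower in that line. For the *Pax3* line 3 rose and none fell, with a median of 0.23 and 10 of 11 positive. At an unadjusted *P* below 0.05, 0 fell there, and DESeq2 called 3 higher and 0 lower. Beside *Krt10* these were *Lor*, the major protein of the cornified envelope, with a log2 fold change of 1.07 (SE 0.18, edgeR adjusted *P* = 7.0e-05), and *Sbsn*, a secreted suprabasal protein, with 0.60 (SE 0.15, edgeR adjusted *P* = 0.0046). *Lor* lay between 5.01 and 6.53 CPM in mutants and between 2.28 and 3.42 CPM in wild types. The median log2 fold change of all genes was close to 0 in both lines. The share of all tested genes called was 13.3% in the *Carm1* line (5.49% higher and 7.83% lower). In the *Pax3* line it was 24.5% (14% higher and 10.5% lower).

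Of 19 regulators of epidermal transcription and splicing, 1 rose and 3 fell in the *Carm1* line (median -0.072), beside 13.3% of all genes called there. *Klf4*, a barrier factor of suprabasal cells, fell with a log2 fold change of -0.44 (SE 0.093, edgeR adjusted *P* = 0.0014) under all alternatives. *Klf5*, a factor of proliferating epithelium, fell with -0.43 (SE 0.14, edgeR adjusted *P* = 0.036) but kept its call in 6 of 15 alternatives and was lost under DESeq2, with the replicate block, with the term for Y-linked counts, in the fit of all 12 libraries and without mutant replicates 1 or 3 or any 1 wild-type replicate, with adjusted *P* of at most 0.14. The ectodermal AP-2 gene *Tfap2b* fell with -0.20 (SE 0.053, edgeR adjusted *P* = 0.0077), a call lost without wild-type replicate 2 (0.16). *Tfap2c* rose with 0.38 (SE 0.11, edgeR adjusted *P* = 0.019), a call kept in 10 of 15 alternatives and lost under DESeq2 and without mutant replicates 2 or 3 or wild-type replicates 1 or 2, with adjusted *P* of at most 0.11. Among the regulators in the *Pax3* line none rose and 2 fell, *Tfap2b* with -0.48 (edgeR adjusted *P* = 2.2e-06) and *Tfap2a* with -0.46 (edgeR adjusted *P* = 1.2e-04), both of which neural crest cells express as well. At an unadjusted *P* below 0.05, 2 were higher there, and DESeq2 called 0 higher. Of all genes tested in the *Pax3* line, edgeR called 24.5%.

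Structural partners of the keratins are read beside 13.3% of all genes called in the *Carm1* line and 24.5% in the *Pax3* line. Of 10 tested desmosome genes, *Pkp1*, a plakophilin of stratified epithelium, fell in the *Carm1* line (log2 fold change -0.64, SE 0.18, edgeR adjusted *P* = 0.016), a call that DESeq2, the fit of all 12 libraries and the fits without mutant replicates 1 or 2 did not make (adjusted *P* at most 0.079). No desmosome gene was called in the *Pax3* line by edgeR or DESeq2, with 2 lower and 0 higher at an unadjusted *P* below 0.05. Of 16 hemidesmosome and basement membrane genes, *Col17a1*, which anchors the basal cell through the hemidesmosome, fell in the *Carm1* line from 15.1 ± 0.971 to 10.3 ± 2.27 CPM (n = 3), with a log2 fold change of -0.55 (SE 0.12, edgeR adjusted *P* = 0.0019) and a call under all 15 alternatives. None of that list rose there by edgeR or DESeq2, and 3 were higher at an unadjusted *P* below 0.05. Of the same 16, 4 were called in the *Pax3* line, close to the share of all genes. Of these 2 rose, *Col7a1* with 0.62 (edgeR adjusted *P* = 5.0e-05) and *Cd151* with 0.23 (0.022), and 2 fell, *Itga6* with -0.36 (edgeR adjusted *P* = 2.9e-04) and *Dst* with -0.18 (0.017). Of 21 adherens and tight junction genes, *Ctnna1* rose (0.14, edgeR adjusted *P* = 0.022) and *Cldn1* fell (-0.41, 0.042) in the *Carm1* line, and *Spint2* rose (0.30, 0.017) and *Ctnnd1* fell (-0.17, 0.031) in the *Pax3* line. Leaving out single libraries ended the calls of *Ctnna1* (mutant replicates 1 or 2, wild-type replicate 2, edgeR adjusted *P* at most 0.14), *Cldn1* (mutant replicates 1 or 3, wild-type replicates 2 or 3, at most 0.26), *Spint2* (wild-type replicate 1, mutant replicates 2 or 3) and *Ctnnd1*, *Cd151* and *Dst* (wild-type replicate 1, mutant replicates 1 or 3 for each, and wild-type replicate 2 for *Ctnnd1*). Length and GC offsets also ended the calls of *Spint2* and *Ctnnd1*, with adjusted *P* over all alternatives of at most 0.45 and 0.66. The offsets ended those of *Cd151* and *Dst* too, with at most 0.11 and 0.13. The *Cldn1* call was kept in 7 of 15 alternatives. It was also lost under DESeq2, with the replicate block, with the term for Y-linked counts and in the fit of all 12 libraries.

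**Figure D5:**
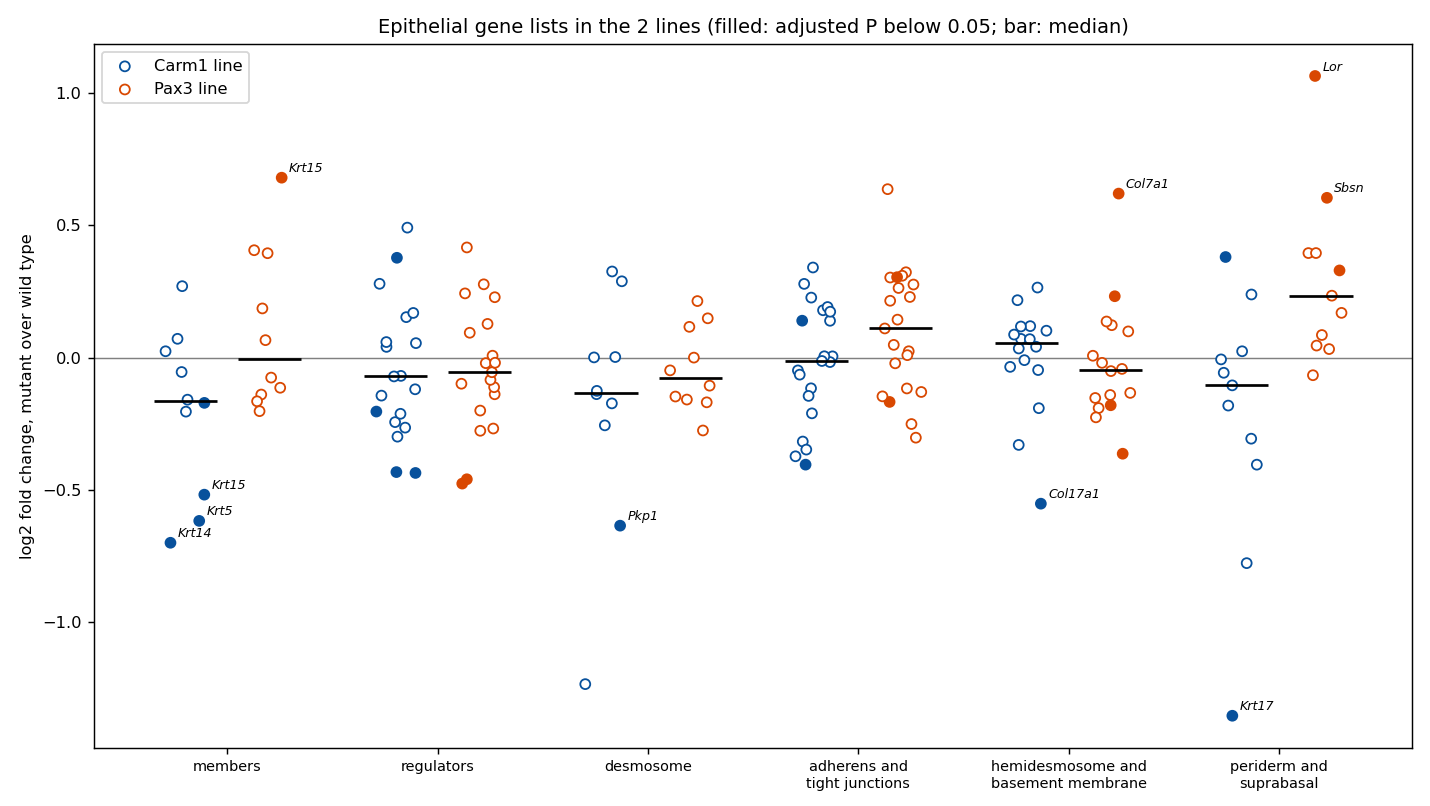
Log2 fold changes, mutant over wild type, of the 10 genes and of 5 lists of epithelial genes in the *Carm1* line (blue) and the *Pax3* line (orange), with 1 point per tested gene, filled where the edgeR adjusted *P* is below 0.05, and the median as a bar. *Krt17* at -1.36 and *Lor* at 1.07 are the called genes farthest from 0, and the medians lie between -0.17 and 0.23.

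Genes of other cell types that carry simple keratins were measured beside these results. Their counts are read beside 13.3% of all genes called in the *Carm1* line (5.49% higher and 7.83% lower). The same share in the *Pax3* line was 24.5% (14% higher and 10.5% lower). Of 10 hepatoblast genes 8 fell and none rose in the *Carm1* line, led by *Alb* (-1.41), *Serpina1a* (-1.41), *Hnf4a* (-1.30) and *Apoa2* (-1.18), with 0 higher at an unadjusted *P* below 0.05. Their sum lay between 856 and 1035 CPM in *Carm1* KO/KO embryos and between 1554 and 1881 CPM in wild types. *Apoa2* rose in the *Pax3* line (0.70) while *Afp* (-0.38) and *Trf* (-0.33) fell, and the sum lay between 976 and 1067 CPM in mutants and between 1152 and 1387 CPM in wild types. Gut and lung endoderm genes numbered 8 tested in the *Carm1* line with 0 called by edgeR or DESeq2 and 0 at an unadjusted *P* below 0.05, and 7 in the *Pax3* line with *Sox17* higher (0.36). Mesothelial genes (*Wt1*, *Msln*, *Upk3b*, *Upk1b*, *Lrrn4* and *Bnc1*) summed to between 53.9 and 55.3 CPM in *Carm1* KO/KO embryos and between 41.8 and 51.3 CPM in wild types, and *Bnc1* alone was called (0.34). Yolk sac endoderm genes (*Amn*, *Cubn*, *Lrp2*, *Rhox5*, *Apob* and *Dab2*) included *Lrp2* higher (0.44) and *Apob* lower (-0.94) in the *Carm1* line, and *Cubn* (-0.76) and *Dab2* (-0.25) lower in the *Pax3* line. Lens and placode genes (*Cryaa*, *Cryab*, *Cryba1*, *Foxe3* and *Eya1*) included *Eya1* higher (0.27) in the *Carm1* line, and *Cryba1* (0.46) and *Cryaa* (0.45) higher and *Eya1* lower (-0.23) in the *Pax3* line. Trophoblast genes were near 0, with sums between 1.16 and 3.36 CPM over all groups and 1 of 8 genes tested. When single libraries were left out, edgeR lost the calls of *Apoa2*, *Apob*, *Bnc1* and *Eya1* in the *Carm1* line (adjusted *P* at most 0.13, 0.13, 0.20 and 0.065 over the alternatives) and of *Sox17*, *Cubn*, *Dab2*, *Cryba1* and *Eya1* in the *Pax3* line (at most 0.094, 0.39, 0.14, 0.25 and 0.33). The *Cryaa* call was lost with length and GC offsets and in the fit of all 12 libraries (adjusted *P* at most 0.32, log2 fold change down to 0.22). That fit also ended the *Pax3* line calls of *Cryba1* and *Trf* (edgeR adjusted *P* = 0.093 for *Trf*). DESeq2 did not call *Bnc1* or *Cubn*, and the replicate block ended the calls of *Apob* and *Bnc1*. The term for Y-linked counts ended those of *Apob* and *Cubn*. Length and GC offsets ended those of *Cubn*, *Dab2*, *Cryba1* and *Eya1* in the *Pax3* line. The simple keratins *Krt8*, *Krt18* and *Krt19*, which hepatoblasts also express, were not called in the *Carm1* line, and the part of these cell types in the keratin results was not tested.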

How the data were processed

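Polyadenylated RNA of 12 homogenized whole embryos (RINe above 9) was sequenced in paired reads. The authors aligned reads to mm10 with STAR and counted them on genes with featureCounts, whose versions and strand setting are not given in the sources used here. The deposited values are raw counts per gene and library, without normalization or pooling. Groups came from the labels. Total counts ran from 17183344 to 23518692 per library.

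Each line was tested on its own with edgeR 4.0.16 (R 4.3.3): TMM factors, filterByExpr, robust quasi-likelihood test and Benjamini-Hochberg adjustment over all genes tested, at 0.05. The difference between lines was a contrast in one fit of 12 libraries. The edgeR fits were first run on simulated counts with known changes. Those counts used dispersions fitted by edgeR and held no differences between litters or sexes, so they cannot show how the tests behave on these embryos. The alternatives were DESeq2 1.42.0, RLE and upper-quartile factors, other count filters, a term for Y-linked counts, length and GC offsets (splines with 5 degrees of freedom), a replicate block, a shared fit of both lines, and omission of single libraries. In the likeness measure 0.5 was added to CPM before taking log2, and genes needed a mean log2 CPM of at least 1. CPM per kb used 1 reference transcript per gene from GENCODE (GRCm38, identical to mm10). Near-copies were searched with blastn 2.17.0 (at least 100 nt and 95% identity). Antisense genes share exonic bases with *Krt5* (129), *Krt8* (101) and *Dsp* (499).

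The genes named are the 10 genes, up to 4 significant genes of largest change per list and line, all genes of lists of 6 or fewer (except 1 lens and placode gene, which is not reported here), significant keratins, the 5 genes most like *Krt5* and *Krt8*, and both targeted genes. The genes and lists were chosen with earlier results of these data known.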

Additional observations from a re-analysis of the deposited data

Results flagged for a closer look

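The tested difference between the mutant effects of the 2 lines (log2 fold change in the *Carm1* line minus that in the *Pax3* line, edgeR's quasi-likelihood test, adjusted over all genes tested) passed the threshold for 17 epithelial genes, the basal keratins included. Of all 16292 genes tested, 19.1% passed (8.65% positive and 10.5% negative). Beside the 10 genes, the lists held 19 regulators, 10 desmosome genes and 21 adherens and tight junction genes that were tested. They also held 16 tested hemidesmosome and basement membrane genes, 11 periderm and suprabasal genes and 8 other keratins, some of them in 2 lists. Over all these tested genes together, 17 is close to the share of all genes, so the count is no excess among epithelial genes. Among the basal keratins the difference was -1.01 for *Krt5*, -0.88 for *Krt14* and -1.19 for *Krt15*. In periderm and suprabasal genes it was -1.74 for *Krt17*, -1.16 for *Lor* and -0.999 for *Sbsn*, each negative like the basal keratins. Of the regulators it was 0.64 for *Tfap2a*, 0.28 for *Tfap2b* and -0.67 for *Klf4*. For genes of hemidesmosomes and the basement membrane it was -0.64 for *Col17a1*, -0.57 for *Col7a1*, 0.41 for *Itga6* and 0.31 for *Dst*. For junction genes it was 0.57 for *Dsc2*, 0.28 for *Ctnna1*, -0.35 for *Epcam* and -0.36 for *Spint2*. Of these, *Dsc2* and *Epcam* passed in neither line on its own.
Over the alternatives the adjusted P of the difference rose to at most 0.17 for *Tfap2b*, 0.073 for *Epcam*, 0.30 for *Spint2* and 0.086 for *Col17a1*, whose calls were lost without some single libraries, and to 0.055 for *Dsc2*, whose call was lost with length and GC offsets. Among the marker genes of other cell types the difference also passed for 6 of 10 hepatoblast genes, all negative, beside 19.1% of all genes tested. It passed for *Lrrn4*, *Bnc1*, *Cubn*, *Lrp2* and *Eya1* too, all positive.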

How the results depend on the processing

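The calls of *Krt5*, *Krt14* and *Krt15* in the *Carm1* line and in the difference between lines, and of *Krt15* in the *Pax3* line, held under every alternative. Over all results of the 10 genes, 456 values under an alternative kept direction and side of the threshold, 13 passed it anew, 7 no longer passed it and 24 changed sign. All that changed sign were uncalled and near 0, and the cause was not tested. Leaving out 1 library gave, from lowest to highest, -0.20 to 0.032 for *Krt8*, -0.063 to 0.18 for *Krt18* and -0.029 to 0.11 for *Trp63* in the *Carm1* line. It gave -0.047 to 0.19 for *Krt8*, -0.19 to 0.039 for *Dsp* and -0.23 to 0.020 for *Cdh1* in the *Pax3* line, and -0.26 to 0.081 for *Krt19*, -0.039 to 0.089 for *Perp*, -0.20 to 0.034 for *Dsp* and -0.22 to 0.044 for *Cdh1* in the difference. The term for Y-linked counts gave 0.0025 for *Krt8* in the *Carm1* line. Length and GC offsets gave -0.059 for *Krt8* and 0.034 for *Dsp* in the *Pax3* line, and 0.0033 for *Krt8* and 0.073 for *Krt19* in the difference. Of the 10 genes in the *Pax3* line, 2 were called by DESeq2, with no filter on low counts, with the offsets and in the fit of all 12 libraries, 3 with at least 10 counts in every library, and 1 to 3 when 1 library was left out. Genes called in the *Pax3* line numbered 2526 with the offsets (67.7% higher, against 57.1%) and 2454 to 4103 without 1 library, and in the *Carm1* line 1224 to 2290.

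Replicate numbers are shared by the groups of a line. Deviations of same-numbered libraries from their group means correlated at -0.041, 0.00082 and -0.042 in the *Carm1* line. In the *Pax3* line the correlations were 0.13, -0.092 and 0.23. Litters are not given, so these values cannot decide whether same-numbered libraries share a litter or batch. With the replicate block 1787 genes and 3 of the 10 were called in the *Carm1* line, 4177 and 1 in the *Pax3* line, and 3094 and 3 in the difference. Without the block the genes called numbered 2106, 3851 and 3115. With 3 embryos per group, intervals of single genes stayed wide, and *Krt19* rested on 90 to 202 counts per library. Without strand information, antisense reads cannot be told apart.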
